A study of Sus scrofa with 24 samples.

Results

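CEBPB and CEBPD, the genes of the transcription factors C/EBP beta and C/EBP delta, were described in the blood mononuclear cells of pigs on 6 diets. They are 2 of the 6765 genes that the annotation of the array names, and all probe sets assigned to either gene were taken. These were 4 probe sets of 23999: 1 for CEBPB (Ssc.9738.1.A1_at) and 3 for CEBPD (Ssc.10025.3.S1_at, Ssc.10025.1.S1_at and Ssc.10025.2.S1_at). All 4 were among the 17999 probe sets that passed a filter on dim signals and were tested. The CEBPD probe sets are called strongest (Ssc.10025.3.S1_at), middle (Ssc.10025.1.S1_at) and weakest (Ssc.10025.2.S1_at) after their mean signals, which do not compare amounts of RNA between probe sets. Both genes had been picked for their levels over the diets, so those levels and differences are given as a description, without a test.

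C/EBP beta and C/EBP delta are basic leucine zipper proteins that bind DNA as dimers, with each other and with other members of their family. In monocytes and macrophages they are induced by interleukins and bacterial products, and they activate genes of inflammation and of the acute phase response. CEBPB is also known for its part in the differentiation and survival of monocytes, and CEBPD for amplifying the response of macrophages to bacterial products, both mainly from work in mouse cells.

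Peripheral blood mononuclear cells (PBMNCs) were isolated by density gradient, without a sort, from 24 pigs, and the RNA of each animal was hybridised to its own Affymetrix porcine array. Each of the 6 groups held 2 females (animals 1 and 2) and 2 males (animals 3 and 4) after 4 months of feeding; the sources used here give neither breed nor age. AD-GE animals ate an atherogenic diet (cholic acid at 1%, coconut oil at 10% and tallow of beef at 5.5%) with grape extract at 1 g per 70 kg of body weight. AD-GE-RES animals ate that diet with a grape extract enriched in resveratrol, a stilbene of grape skin, at 1 g of extract and 18 mg of resveratrol per 70 kg. AD-RES animals ate the atherogenic diet with 18 mg of resveratrol per 70 kg, and AD animals the atherogenic diet alone. CT-GE-RES animals ate standard pig chow with the enriched extract at the same dose, and CT animals chow alone. AD was set against CT to ask about the fat-rich diet, and each supplemented group against its own unsupplemented diet to ask about the supplement. The 4 AD animals enter 4 of these 5 comparisons.

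Array medians lay between 38.6 and 41.2 on the linear intensity scale, and precision is limited by how many arrays there were. The labelled cell mixture was checked against its markers, whose levels are log2 intensities averaged over all arrays. The T cell receptor subunit CD3E had 10.18, and of the monocyte markers CD163 had 8.76, FCN1 9.57 and CD14 6.05, while ITGAM, at 3.58, was close to the filter limit of 3.57. The erythroid enzyme ALAS2 had 11.27 and haemoglobin HBB 8.60. Of the tested neutrophil markers, CHI3L1 had 7.31, NPG4 7.16, LTF 6.96, PR39 5.36, the granulocyte protease ELANE 4.21 and MMP9 4.00. Platelet markers ran between 4.97 (CAVIN2) and 8.98 (ITGB3). The 3' to 5' signal ratio of 3 control transcripts, which is higher where RNA is more degraded or copied less far, ran between 1.37 and 4.39 (log2) over the arrays. Male 4 of CT stood apart, with the highest ratio of all (4.39) and with neutrophil markers that averaged 1.96 above their mean over all arrays (log2). In mixed cells, fewer cells of a type and less RNA per cell cannot be told apart.

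CEBPB gave a high and variable signal. Its log2 intensity was 11.65, 11.50, 12.04 and 12.43 in AD-GE animals 1 to 4. It was 12.28, 11.68, 11.85 and 12.17 in AD-GE-RES, and 10.84, 11.18, 12.01 and 12.02 in AD-RES. The females of AD-RES were among the 4 lowest of all 24 animals, while its males lay near the middle. CEBPB was 12.18, 12.09, 12.31 and 12.38 in AD. It was 11.42, 11.11, 11.17 and 12.27 in CT-GE-RES, where only male 4 was near the chow controls, and 12.40, 12.22, 11.94 and 12.02 in CT. Group means ± SD (n = 4 each) were 11.91 ± 0.42 for AD-GE animals, 11.99 ± 0.28 for AD-GE-RES animals, 11.51 ± 0.60 for AD-RES animals, 12.24 ± 0.13 for AD animals, 11.49 ± 0.53 for CT-GE-RES animals and 12.15 ± 0.21 for CT animals. Ordered by mean, high to low, the groups ran AD, CT, AD-GE-RES, AD-GE, AD-RES and CT-GE-RES, and no neighbours in that order were further apart than their SDs.

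In the fitted model CEBPB was lower in AD-RES than in AD by a log2 difference of -0.73 (SE 0.24), or 1.66-fold, and every AD-RES animal lay below every AD animal. In CT-GE-RES against CT the difference was -0.66 (SE 0.24), 1.58-fold lower, with male 4 of CT-GE-RES inside the range of CT. The differences of AD-GE (-0.34) and AD-GE-RES (-0.25) from AD and of AD from CT (0.09), each with an SE of 0.24, left the animals overlapping. For AD-GE-RES the difference was -0.41 without its female 1 and -0.14 without its male 3. The difference of AD from CT was -0.039 without male 3 of CT, -0.011 without male 4 and 0.25 without female 1, so its sign rested on single animals.

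CEBPD was read first by its strongest probe set. Its log2 intensity was 10.00, 10.01, 10.26 and 10.17 in AD-GE, and 10.71, 10.59, 10.40 and 10.41 in AD-GE-RES. It was 9.90, 10.15, 10.64 and 10.53 in AD-RES, against 11.01, 11.09, 10.76 and 10.76 in AD. No animal of the 3 supplemented atherogenic groups reached the lowest AD animal. On chow it was 10.39, 10.53, 10.38 and 10.99 in CT-GE-RES, against 11.15, 11.15, 10.68 and 10.63 in CT, where both females were above both males and male 4 of CT-GE-RES lay between them. The means ± SD (n = 4 each) were 10.11 ± 0.13 for AD-GE animals, 10.53 ± 0.15 for AD-GE-RES animals, 10.30 ± 0.34 for AD-RES animals, 10.90 ± 0.17 for AD animals, 10.58 ± 0.29 for CT-GE-RES animals and 10.91 ± 0.28 for CT animals.

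**Figure D1:**
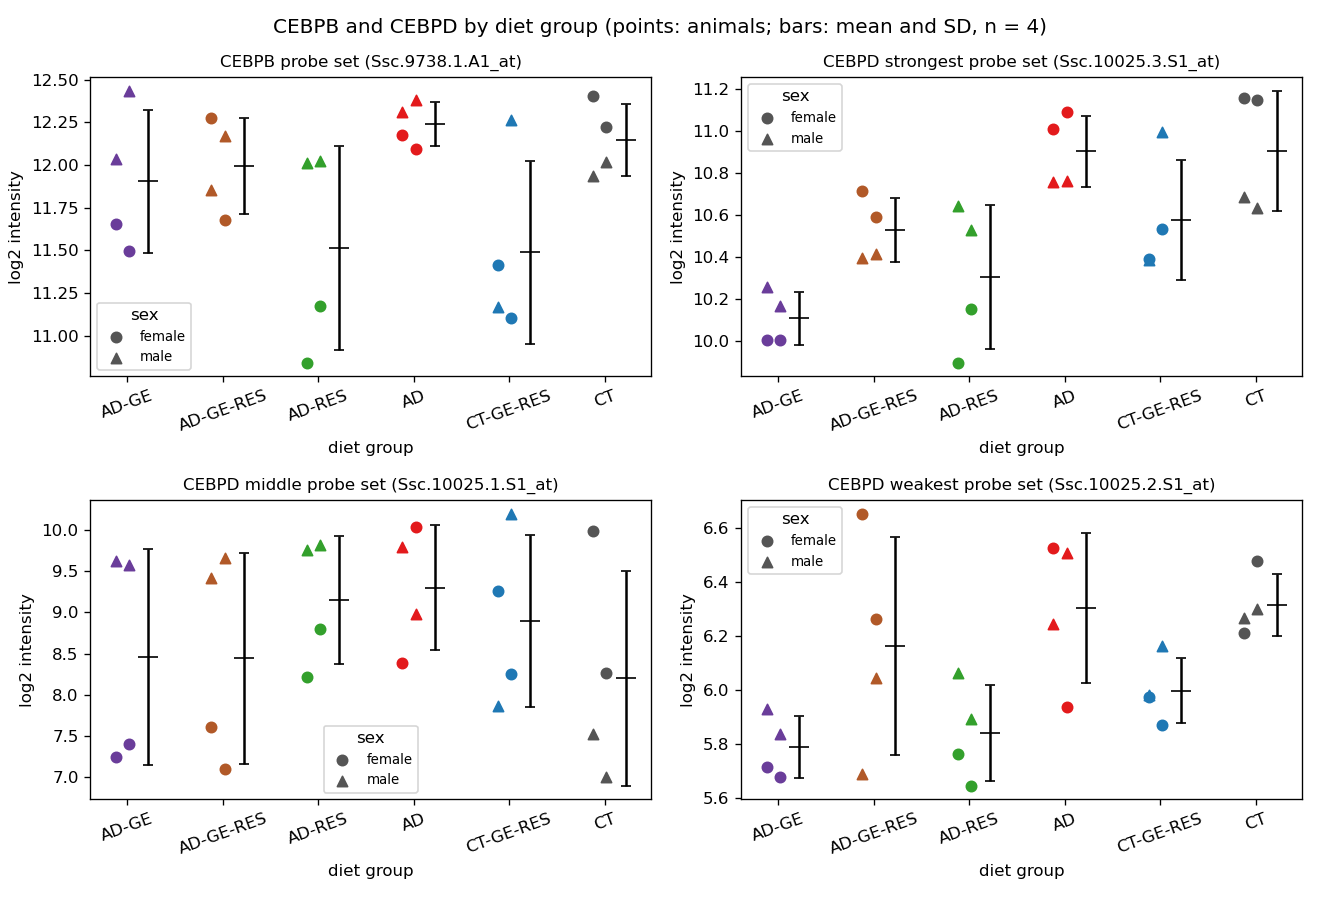
Log2 intensity of the CEBPB probe set and the 3 CEBPD probe sets (vertical axes, each with its own scale) in the 6 diet groups (horizontal axes). Points are animals, circles females and triangles males, and the bar beside each group is its mean and SD (n = 4); for the strongest CEBPD probe set all animals of AD-GE, of AD-GE-RES and of AD-RES lie below all AD animals.

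The strongest CEBPD probe set was lower than in AD by a log2 difference of -0.79 for AD-GE animals (1.73-fold), -0.60 for AD-RES animals (1.51-fold) and -0.37 for AD-GE-RES animals (1.30-fold), each with an SE of 0.17. Leaving out single animals kept the AD-GE difference between -0.85 and -0.73. In CT-GE-RES against CT the difference was -0.33 (SE 0.17) with overlapping animals, and AD and CT did not separate, at -0.0025 (SE 0.17), with a sign that single animals turned (-0.097 without male 4 and 0.084 without female 1 of CT). High to low, the groups ran CT, AD, CT-GE-RES, AD-GE-RES, AD-RES and AD-GE. AD and CT-GE-RES were the only neighbours in that order whose gap (0.33) was larger than both SDs, and their animals still overlapped.

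The middle CEBPD probe set gave a different order of the groups. It read 7.25, 7.41, 9.62 and 9.57 in AD-GE, and 7.61, 7.10, 9.41 and 9.66 in AD-GE-RES. In AD-RES it read 8.22, 8.80, 9.75 and 9.82, against 8.39, 10.04, 9.79 and 8.99 in AD. The females of AD-GE and AD-GE-RES were thus about as low as the lowest arrays and their males nearly as high as the highest. The 3' to 5' ratios split by sex there too, with 3.34 and 2.97 in AD-GE females against 1.77 and 1.75 in its males. In AD-GE-RES the ratios were 3.40 and 4.08 against 1.67 and 1.62, so sex and the ratio cannot be told apart in these groups. It read 9.26, 8.25, 7.87 and 10.20 in CT-GE-RES, against 9.99, 8.27, 7.53 and 7.01 in CT. Its values spanned 9.10-fold over the 24 animals, and its pooled SD within groups, 1.11, was larger than that of 99.6% of the tested probe sets, whose median SD was 0.22.

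With that spread, no comparison of the middle probe set separated the animals. Its differences, each with an SE of 0.68, were 1.10 in AD against CT, -0.84 in AD-GE against AD, -0.86 in AD-GE-RES against AD, -0.15 in AD-RES against AD and 0.70 in CT-GE-RES against CT. Without male 4 of CT, the array that stood apart, the difference of AD from CT was 0.55, and without female 1 of CT it was 1.86. For CT-GE-RES against CT these values were 0.15 and 1.46. Leaving out female 2 of AD gave -0.45 for AD-GE, -0.47 for AD-GE-RES and 0.23, the opposite sign, for AD-RES. The value was -0.54 without female 1 of AD-GE in the first of these, and -0.51 without female 2 of AD-GE-RES in the second.

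The weakest CEBPD probe set followed the strongest in part. It read 5.71, 5.68, 5.93 and 5.84 in AD-GE, against 6.53, 5.94, 6.24 and 6.51 in AD, with all AD-GE animals lower; the difference was -0.51 (SE 0.16). In CT-GE-RES it read 5.97, 5.87, 5.98 and 6.16, against 6.21, 6.48, 6.27 and 6.30 in CT, again without overlap, with a difference of -0.32 (SE 0.16). AD-RES (5.84 ± 0.18) was lower than AD (6.30 ± 0.28; SD, n = 4 each) by a difference of -0.46 with 1 AD animal inside its range. AD-GE-RES, at 6.65, 6.26, 5.69 and 6.04, differed from AD by -0.14 (SE 0.16), with females above males; without its female 1 the value was -0.32 and without its male 3 it was 0.03. AD and CT differed by -0.010 (SE 0.16), by -0.092 without female 1 of AD and by 0.117 without its female 2.

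**Figure D2:**
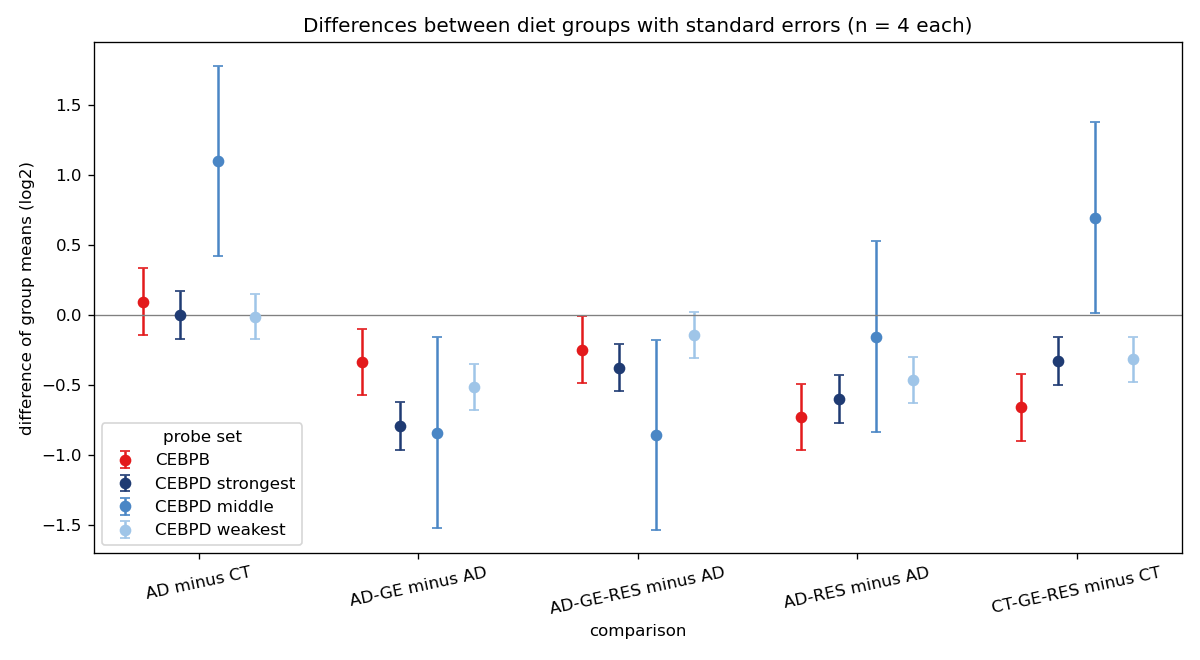
Difference of group means (log2, vertical axis) of the CEBPB probe set and the 3 CEBPD probe sets in the 5 comparisons (horizontal axis), with the first named group minus the second. Points are estimates of the model and bars are standard errors (n = 4 animals a group); the strongest CEBPD probe set has -0.79, -0.37 and -0.60 in the 3 supplemented atherogenic groups, and the middle one has an SE of 0.68 throughout.

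The share of tested probe sets whose animals were lower without overlap gives the background for these counts, though none of it is evidence, since the genes were picked on these values. It was 2.99% in AD-GE against AD, where the strongest and the weakest CEBPD probe sets were of that kind. It was 1.57% in AD-RES against AD, where CEBPB and the strongest CEBPD probe set were, and 0.761% in AD-GE-RES against AD, where the strongest CEBPD probe set was. It was 2.12% in CT-GE-RES against CT, where the weakest CEBPD probe set was, and 1.68% in AD against CT, where no member was. After Benjamini-Hochberg adjustment over all probe sets, limma called 0% of the 17999 in each of the 5 comparisons. At an unadjusted p under 0.05 the shares were 6.38% in AD against CT, 6.09% in AD-GE against AD, 2.4% in AD-GE-RES against AD, 4.45% in AD-RES against AD and 6.8% in CT-GE-RES against CT.

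The sexes, which the choice of the genes had not used, were compared by a test. CEBPB had a lowest, median and highest value of 10.84, 11.67 and 12.40 in the 12 females, against 11.17, 12.03 and 12.43 in the 12 males. The females were lower by -0.34 (SE 0.14) and were higher in 1 of 6 groups, CT. In limma this difference had an unadjusted p of 0.0227 and an adjusted p of 0.404, so it did not pass, beside 48 probe sets that did (0.267% of those tested; 10.3% had an unadjusted p under 0.05). With weights for array quality the difference was -0.52, with an adjusted p of 0.0267 in limma, which passes. With single animals left out, the adjusted p ran between 0.154 and 0.626 in limma and never passed. The strongest CEBPD probe set differed between females and males by 0.0053 (SE 0.099, adjusted p = 0.992 in limma), the middle by -0.72 (SE 0.39, adjusted p = 0.555) and the weakest by -0.02 (SE 0.094, adjusted p = 0.969).

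Whether the sex difference varied over the diets was tested by limma's moderated F of the 5 interaction terms. For the strongest CEBPD probe set F was 6.37, with an unadjusted p of 0.00198 and an adjusted p of 0.0965, which misses the threshold. Its females averaged more than its males in AD-GE-RES (by 0.25), AD (0.29) and CT (0.49), and less in AD-GE (-0.21), AD-RES (-0.56) and CT-GE-RES (-0.23). The difference of AD-RES from AD was accordingly -1.02 in females and -0.17 in males, and the difference between these had an unadjusted p of 0.00159 and an adjusted p of 0.187 in limma. For CT-GE-RES against CT the values were -0.69 in females and 0.03 in males (adjusted p of their difference 0.186). CEBPB (F 3.00, adjusted p = 0.240 in limma) and the middle and weakest CEBPD probe sets (F 5.44 and 2.78, adjusted p = 0.118 and 0.261) did not pass either. This model had no term for the 3' to 5' ratio, whose sex gap also varied over the diets. The ratio was higher in females of AD-GE and AD-GE-RES, while in CT it was 1.64 and 3.33 in females against 3.24 and 4.39 in males. This fit therefore does not tell sex gaps from the ratio. Over all tested probe sets, 0.256% passed this test and 19.7% had an unadjusted p under 0.05.

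CEBPB and CEBPD varied together over the 24 animals. Over the 24 animals CEBPB and the strongest CEBPD probe set had a Pearson r of 0.626 and a Spearman rho of 0.642. These values include the diet differences on which the genes were picked, so they are given without a test. For relations with other measures, p-values over all animals share that limit in part. Without the 2 animals farthest out in CEBPD, r was 0.504. After group means and a sex term shared by all groups were removed, r was 0.850 (permutation p within groups 1e-04, adjusted over 38 relations 0.00127) and rho 0.817. Sex gaps that differed between diets remained in these deviations, and the permutations mixed the sexes of a group. This r therefore does not separate such gaps from variation between animals of 1 sex. The same limit holds for all values below after group and sex were removed. Of 6032 other genes, CEBPB had the highest r with CEBPD on these deviations, and CEBPD came 6 in the ranking of genes for CEBPB.

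**Figure D3:**
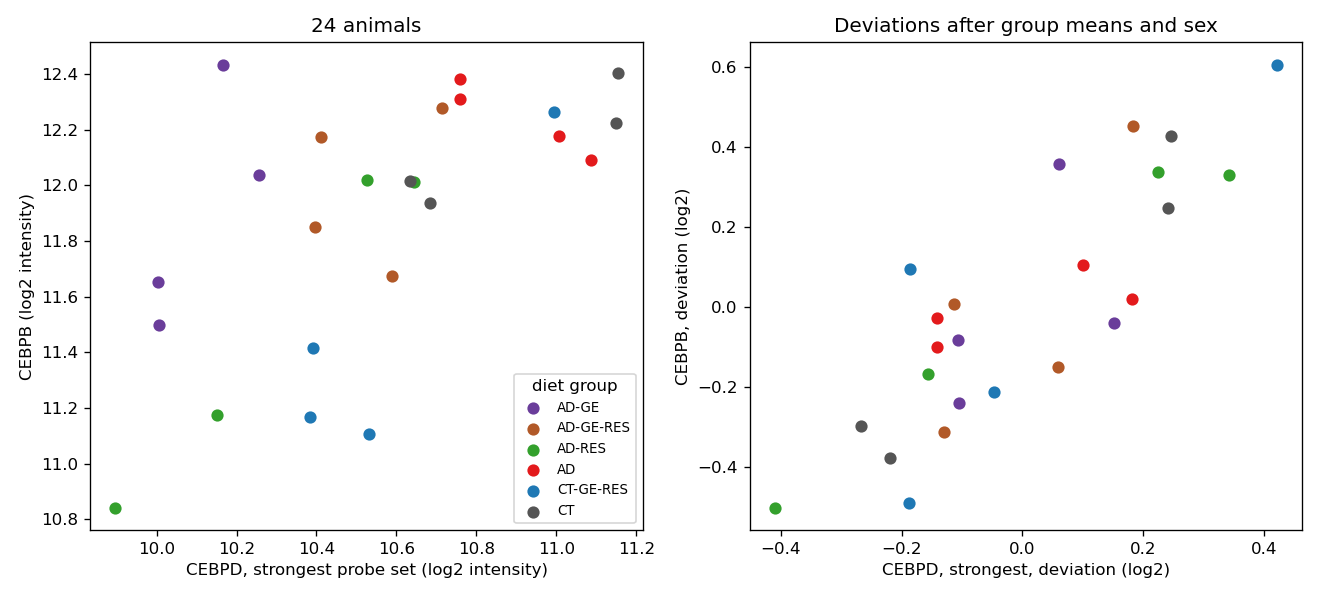
CEBPB (vertical axes) against the strongest CEBPD probe set (horizontal axes) in 24 animals, coloured by diet group, as log2 intensities (left) and as deviations after group means and sex (right). Pearson r is 0.626 on the left and 0.850 on the right; the AD-GE animals lie at low CEBPD values for their CEBPB.

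The middle CEBPD probe set followed the 3' to 5' ratio of the control transcripts. Its r with the ratio was -0.918 and its rho -0.877 over 24 arrays (both permutation p = 1e-05, the smallest that 100000 permutations give, adjusted 0.00019), and r was -0.896 without the 2 arrays of most extreme ratio. After group and sex were removed, r was -0.935. Only 135 of the 17999 tested probe sets had a larger correlation with the ratio in size. The ratios fell on either side of a gap, and r was -0.678 in the 13 arrays between 1.37 and 2.23 (permutation p = 0.0147, adjusted over 10 relations 0.0276) and -0.708 in the 11 arrays between 2.69 and 4.39 (permutation p = 0.0145, adjusted 0.0276).

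The strongest CEBPD probe set had an r of -0.0087 with the same ratio, CEBPB -0.130 and the weakest CEBPD probe set 0.411 (adjusted permutation p = 0.127). Beside the diets, the ratio averaged 2.46 ± 0.82 for AD-GE animals, 2.69 ± 1.24 for AD-GE-RES animals, 1.92 ± 0.23 for AD-RES animals, 2.19 ± 0.87 for AD animals, 2.20 ± 0.89 for CT-GE-RES animals and 3.15 ± 1.13 for CT animals (SD, n = 4 each). With the ratio as a covariate, the middle probe set differed from AD by -0.55 (SE 0.25) for AD-GE animals, -0.32 (SE 0.26) for AD-GE-RES animals and -0.44 (SE 0.25) for AD-RES animals. AD then differed from CT by 0.08 (SE 0.27) and CT-GE-RES from CT by -0.31 (SE 0.27), the opposite sign to the 0.70 without it. The residual SD of the middle probe set was 0.386 with the ratio in the model and 1.05 without it, while those of CEBPB were 0.340 and 0.359.

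**Figure D4:**
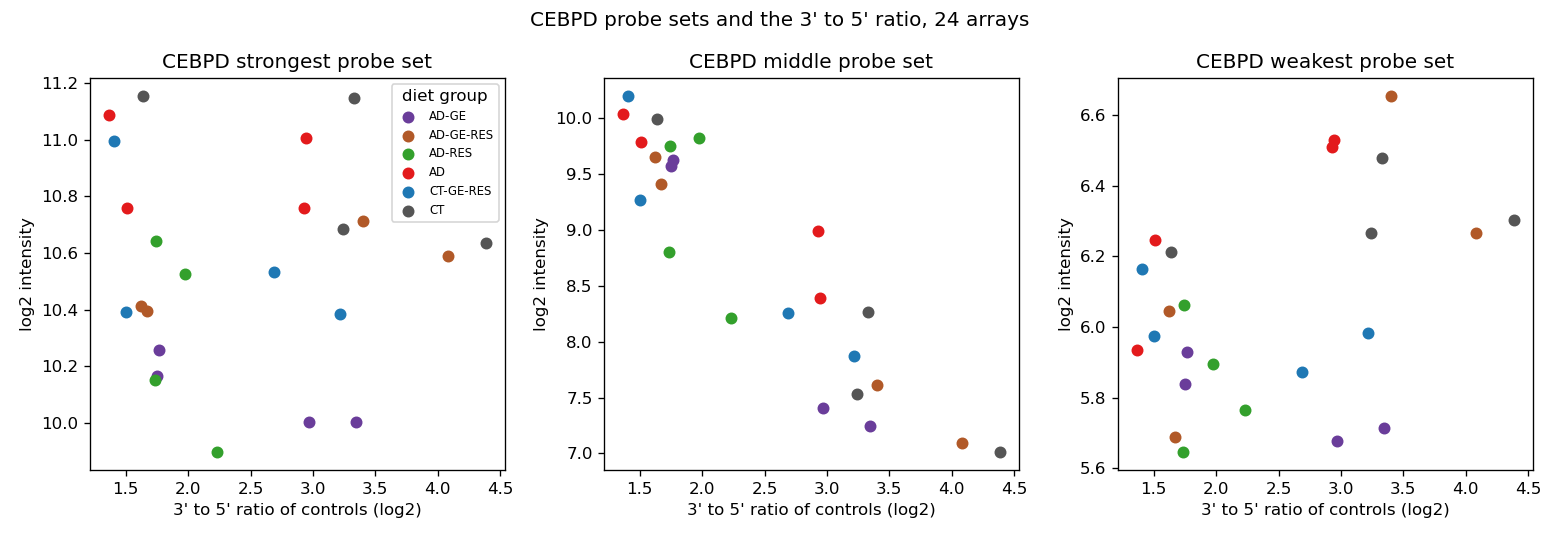
Log2 intensity of the 3 CEBPD probe sets (vertical axes, each with its own scale) against the 3' to 5' ratio of control transcripts (log2, horizontal axes) on 24 arrays, coloured by diet group. Only the middle probe set falls along the ratio, with r of -0.918, against -0.0087 for the strongest and 0.411 for the weakest.

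The CEBPD probe sets were compared with each other as measured, after group and sex were removed, and after the ratio was removed as well. The strongest and the middle had an r of 0.288 over the 24 arrays, 0.546 after group and sex (adjusted permutation p = 0.0662) and 0.795 with the ratio removed too. The middle and the weakest had -0.143, -0.209 and 0.512 in the same order. The strongest and the weakest had 0.727, 0.414 (adjusted permutation p = 0.0839) and 0.609. Between the second and the third of these steps r was thus higher for each pair, while for the strongest and the weakest it stayed below the r as measured. CEBPB, for which the array has 1 probe set, had r of 0.835, 0.751 and 0.790 with the strongest, middle and weakest CEBPD probe sets after all 3 were removed.

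Both genes moved with markers of monocytes, the mononuclear cells in which they are best known. The list had 12 of its 17 markers among the tested genes, and its mean is given relative to all arrays (log2). Of the 12, CD14, FCGR1A, S100A8 and S100A9 are also on the list of C/EBP target genes used below, and TLR2 and TLR4 on that of inducers and receptors. The mean is thus not a measure of cell content apart from those genes. CEBPB had an r of 0.752 with that mean over 24 animals (permutation p = 3e-05, adjusted 0.000285, and rho 0.723, adjusted 0.00133). This r was 0.680 without the 2 farthest animals and 0.901 after group and sex were removed (adjusted permutation p = 0.00019). The strongest CEBPD probe set had an r of 0.786 (permutation p = 2e-05, adjusted 0.000253, and rho 0.788). Its r was 0.722 without the 2 farthest and 0.781 after group and sex were removed (adjusted permutation p = 0.00441). These relations were found on either side of the gap in the 3' to 5' ratios, with r of 0.712 (13 arrays) and 0.813 (11 arrays) for CEBPB and of 0.919 and 0.642 for CEBPD.

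**Figure D5:**
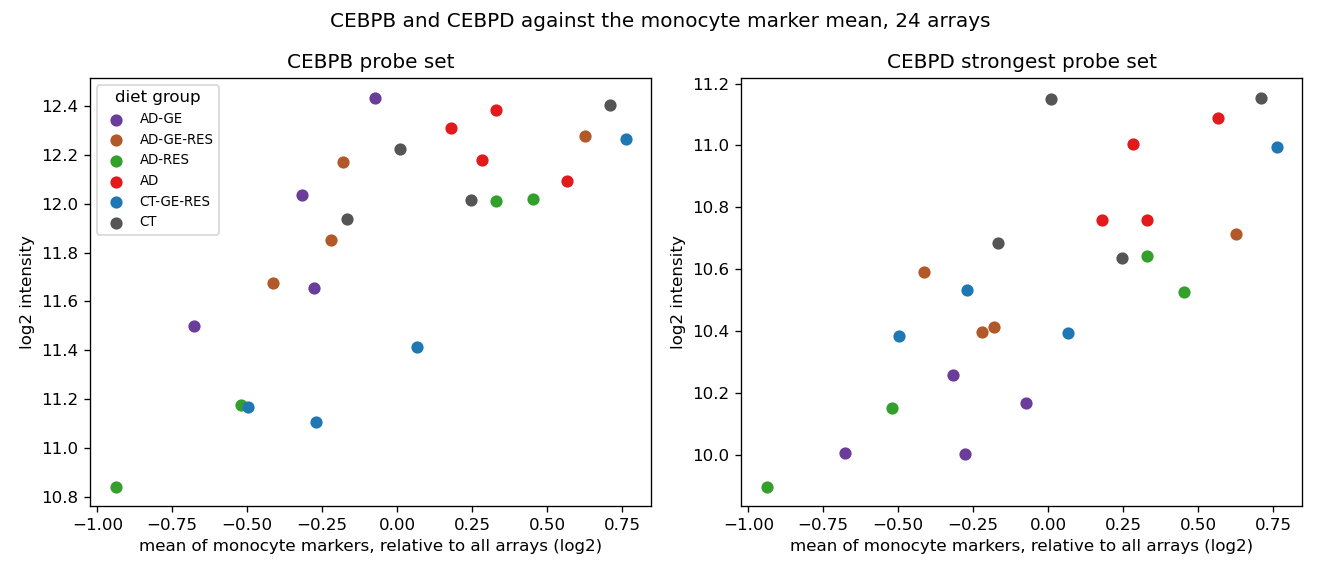
Log2 intensity of CEBPB and of the strongest CEBPD probe set (vertical axes) against the mean of 12 monocyte markers relative to all arrays (log2, horizontal axes), for 24 arrays coloured by diet group. Pearson r is 0.752 for CEBPB and 0.786 for CEBPD, and the AD animals lie between 0.18 and 0.57 on the marker mean.

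The levels of the monocyte markers are given beside these results. Their mean was -0.34 ± 0.25 for AD-GE animals (-0.68 to -0.08), -0.05 ± 0.46 for AD-GE-RES animals, -0.17 ± 0.67 for AD-RES animals and 0.34 ± 0.16 for AD animals (0.18 to 0.57), and 0.02 ± 0.55 for CT-GE-RES animals and 0.20 ± 0.38 for CT animals (SD, n = 4 each). No AD-GE animal reached the AD range. Against AD, 12 of the 12 markers were lower in AD-GE pigs, 11 in AD-GE-RES pigs and 11 in AD-RES pigs, and 7 of 12 were lower in CT-GE-RES against CT; none passed the adjusted test in limma. With the marker mean as a covariate, the strongest CEBPD probe set differed from AD by -0.50 (SE 0.13) for AD-GE animals, -0.21 (SE 0.12) for AD-GE-RES animals and -0.38 (SE 0.13) for AD-RES animals. CEBPB then differed from AD by 0.15 (SE 0.13) for AD-GE animals, 0.03 (SE 0.12) for AD-GE-RES animals and -0.36 (SE 0.13) for AD-RES animals, and CT-GE-RES from CT by -0.53 (SE 0.12). Markers of neutrophils, of which 6 of 12 were tested, averaged -0.29 ± 0.51 for AD-GE animals, -0.14 ± 0.36 for AD-GE-RES animals, -0.08 ± 0.46 for AD-RES animals, 0.46 ± 0.71 for AD animals, -0.42 ± 0.21 for CT-GE-RES animals and 0.47 ± 1.00 for CT animals. Against AD, 5, 6 and 6 of the 6 were lower in the groups with grape extract, enriched extract and resveratrol, and 5 of 6 were lower in CT-GE-RES against CT. Markers of T cells, of which 7 of 12 were tested, were higher than in AD for 6, 4 and 6 of 7 in the same 3 groups and for 7 of 7 in CT-GE-RES against CT. No marker of either list passed the adjusted test in limma. Beside these marker counts, 48.6%, 47.6% and 50.6% of all tested probe sets were lower than in AD in the same 3 groups. In CT-GE-RES against CT that share was 47.7%. Whether the levels of any of these markers have a part in the diet differences was not tested beyond these values.

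The weakest CEBPD probe set had an r of 0.567 with monocyte markers (adjusted permutation p = 0.018), and of 0.391 after group and sex were removed (adjusted 0.262). With T cell markers these values were -0.554 (adjusted permutation p = 0.018) and -0.441 (adjusted 0.239). With neutrophil markers its r was 0.473 (adjusted permutation p = 0.0604) and its rho 0.534 (adjusted 0.0263). CEBPB had an r of -0.574 with B cell markers after group and sex were removed (adjusted permutation p = 0.0272) and of -0.394 over all animals (adjusted 0.145). The middle CEBPD probe set had an r of 0.742 with T cell markers (adjusted permutation p = 0.00019) and of 0.795 after group and sex were removed (adjusted 0.00441). It was -0.267 in the 13 arrays of low 3' to 5' ratio and 0.485 in the 11 of high ratio (adjusted permutation p = 0.384 and 0.143), neither of which passed. With monocyte markers the middle probe set had an r of 0.467 (adjusted permutation p = 0.069) and a rho of 0.550 (adjusted 0.0239), and r was 0.506 after group and sex were removed (adjusted 0.0777). Neutrophil, NK cell, platelet and erythroid markers had an r between -0.113 and 0.385 with CEBPB and the strongest CEBPD probe set over 24 animals, none with an adjusted permutation p under 0.05. By Spearman's rho, the strongest CEBPD probe set and neutrophil markers did pass, at 0.494 (adjusted permutation p = 0.0462). After group and sex were removed, their r was 0.072 (adjusted 0.876).

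The rest of the C/EBP family was measured in part. CEBPA, the factor that commits progenitors to the myeloid lineage, had 2 probe sets, with means of 5.56 and 4.92 log2 intensity. CEBPG, a partner without an activation domain of its own, had 7.22, and DDIT3, the stress-induced family member that blocks its partners, 7.31. CEBPE and CEBPZ had no probe set with their name among those tested. In the 5 comparisons the stronger CEBPA probe set, CEBPG and DDIT3 had no unadjusted p under 0.05 in limma. The weaker CEBPA probe set averaged 4.75 ± 0.23 for AD animals and 5.46 ± 0.54 for CT animals (SD, n = 4 each). Its difference of -0.72 (SE 0.31) had an unadjusted p of 0.0292 and an adjusted p of 0.757 in limma (3.13% of all were lower at that p), where the stronger probe set had -0.026 (SE 0.14). The animals of these 4 probe sets overlapped in each of the 5 comparisons.

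Genes around the pair were followed in 4 further lists: dimer partners and regulators (8 of 19 genes tested), inducers with their receptors and signal transducers (19 of 28), target genes of myeloid cells (24 of 33) and other myeloid transcription factors (10 of 20). With the family they made 61 different genes, of which 6 are also on the monocyte marker list. These lists were written with earlier results of these data known, so their counts are given as a description. Against AD, 46 of the 61 were lower in AD-GE pigs, 48 in AD-GE-RES pigs and 47 in AD-RES pigs, beside 48.6%, 47.6% and 50.6% of all tested probe sets. These 3 counts share the same 4 AD animals. The list medians were -0.25, -0.21 and -0.42, and the medians of all probe sets 0.0065, 0.0089 and -0.0024. In CT-GE-RES against CT 42 of the 61 were lower (47.7% of all probe sets), with a median of -0.14, and in AD against CT 21 were lower (49.6% of all), with a median of 0.14. No listed gene passed the adjusted test in any comparison. At an unadjusted p under 0.05 in limma there were 10, 1 and 12 genes in these supplemented groups (6.09%, 2.4% and 4.45% of all probe sets). There were 7 in AD against CT (6.38% of all) and 1 in CT-GE-RES against CT (6.8% of all). Single animals moved these counts. In AD-GE against AD the count was 5 without female 2 and 6 without male 3 of AD-GE. In AD-GE-RES against AD it was 22 without female 1 of AD-GE-RES, and 2 and 5 without males 3 and 4 of AD. In AD-RES against AD it was 7 without either female and 20 without male 4 of AD-RES. In AD against CT it was 4 without either male of AD, 11 without female 1 and 2 without male 4 of CT. The count in CT-GE-RES against CT was 3 without female 1 of CT-GE-RES, and 4, 5, 3 and 0 without animals 1 to 4 of CT.

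Among the inducers, receptors and transducers, 5 of 19 had an unadjusted p under 0.05 in AD-GE against AD, all lower (3.3% of all probe sets were lower at that p). TLR2, a receptor of bacterial lipoproteins, averaged 7.97 ± 0.30 in AD-GE and 9.08 ± 0.29 in AD (SD, n = 4 each), a difference of -1.11 (SE 0.33, adjusted p = 0.683 in limma) without overlap. TLR4, the receptor of endotoxin, differed by -0.81 (SE 0.27), the interferon receptor chain IFNGR1 by -0.70 (SE 0.29) and the TNF receptor TNFRSF1A by -0.36 (SE 0.15). In AD-RES against AD 3 of 19 had such a p, all lower (2.65% of all): SOCS3, the feedback inhibitor of interleukin signalling, by -0.46 (SE 0.16), the NF-kappa-B inhibitor NFKBIA by -0.69 (SE 0.24) and TLR2 by -0.88 (SE 0.33). SOCS3 was the only one in AD-GE-RES against AD, at -0.39 (SE 0.16; 1.25% of all were lower at that p). Its group means, 3.70 to 4.17, were close to the filter limit of 3.57.

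In AD against CT, 3 of 19 of these genes had an unadjusted p under 0.05, all higher (3.25% of all). SOCS3 was higher by 0.39 (SE 0.16) and NFKBIA by 0.60 (SE 0.24), both without overlap of the animals (1.06% of all were higher in that way), and CREB1, a transcription factor of the cyclic AMP pathway that binds the CEBPB promoter, by 0.56 (SE 0.26). Without male 4 of CT, the array that stood apart, SOCS3 had 0.25 and CREB1 0.27. CREB1 was also the only one in CT-GE-RES against CT, where it was higher by 0.66 (SE 0.26; 3.87% of all were higher at that p), and by 0.37 without male 4 of CT. All adjusted p-values in limma for these genes were at least 0.683 in the 5 comparisons.

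The target genes were mostly lower in the supplemented atherogenic groups: 21 of 24 in AD-GE pigs (median -0.53), 21 of 24 in AD-GE-RES pigs (median -0.34) and 19 of 24 in AD-RES pigs (median -0.54). Beside them, 48.6%, 47.6% and 50.6% of all tested probe sets were lower in these groups. SOD2, the mitochondrial superoxide dismutase, averaged 10.16 ± 0.31 in AD-GE and 11.08 ± 0.18 in AD (SD, n = 4 each), a difference of -0.91 (SE 0.20, adjusted p = 0.529 in limma) without overlap. ACSL1, which activates fatty acids, differed by -0.75 (SE 0.18) and the matrix protein THBS1 by -0.80 (SE 0.36), both without overlap; without male 3 of AD-GE the value of THBS1 was -0.51. In AD-RES against AD SOD2 differed by -0.63 (SE 0.20), ACSL1 by -0.52 (SE 0.18) and THBS1 by -0.90 (SE 0.36). In AD-GE-RES against AD the same SOD2 and ACSL1 differed by -0.32 (SE 0.20) and -0.30 (SE 0.18), and no target had an unadjusted p under 0.05. Without female 1 of AD-GE-RES these values were -0.55 and -0.46, and without male 4 of AD that of ACSL1 was -0.16.

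On the atherogenic diet itself 16 of 24 targets were higher than in CT, with a median of 0.15 (50.4% of all probe sets were higher). The chemokine CXCL2 averaged 10.43 ± 0.34 for AD animals and 8.59 ± 1.47 for CT animals, a difference of 1.84 (SE 0.66, adjusted p = 0.757 in limma), and CXCL8, which draws neutrophils, differed by 2.04 (SE 0.91, adjusted p = 0.757). Without male 4 of CT these differences were 1.21 and 1.32. The cytokine IL1B differed by 1.09 (SE 0.55), and CCL4, a chemokine for monocytes and T cells, by 0.77 (SE 0.39) without overlap. In CT-GE-RES against CT 15 of 24 were lower (median -0.13, beside 47.7% of all probe sets), with 0 at an unadjusted p under 0.05 in limma (6.8% of all).

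Of the other myeloid transcription factors, SPI1 (PU.1), which acts with the C/EBP proteins on monocyte genes, differed from AD by -0.66 (SE 0.27) in AD-GE and by -0.87 (SE 0.27) in AD-RES. IRF8, a factor of the monocyte lineage, differed by -0.58 (SE 0.21) in AD-RES, without overlap. ID1, an inhibitor of helix-loop-helix factors, was higher in AD than in CT by 0.57 (SE 0.17) and differed from AD by -0.37 (SE 0.17) in AD-GE and -0.42 (SE 0.17) in AD-RES, the last of which was -0.25 without female 2 of AD-RES; its group means of 3.79 to 4.36 were near the filter limit. The orphan nuclear receptor NR4A2 was higher in AD than in CT by 1.07 (SE 0.47). Of the dimer partners, NFIL3, a basic leucine zipper repressor, averaged 10.47 ± 0.73 in AD-RES and 11.38 ± 0.17 in AD (SD, n = 4 each), a difference of -0.91 (SE 0.33, adjusted p = 0.980 in limma) without overlap, and FOSL2, a subunit of AP-1, differed by -1.10 (SE 0.52). ATF3, JUN and FOS, which answer to acute stimulation, had no unadjusted p under 0.05 in any of the 5 comparisons.

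The genes most like each member over the 24 animals, among 6032 with a name, were listed as a description; the values share arrays, RNA quality and cell makeup. For CEBPB the highest r belonged to SGK1 (0.866), a kinase induced by glucocorticoids and serum, and to THBD (0.816), the thrombin-binding receptor thrombomodulin. They were followed by the sorting nexin SNX24 (0.812), INSIG1 (0.807), which holds back sterol synthesis, NFIL3 (0.803), the kinase PIM3 (0.802), the transcription factor ETS2 (0.787) and the matrix glycoprotein EMILIN2 (0.778). SGK1 averaged 11.36 ± 0.50 for AD-GE animals, 11.62 ± 0.35 for AD-GE-RES animals, 11.11 ± 0.32 for AD-RES animals, 11.87 ± 0.14 for AD animals, 11.15 ± 0.34 for CT-GE-RES animals and 11.50 ± 0.25 for CT animals (SD, n = 4 each), with the lowest means in AD-RES and CT-GE-RES as for CEBPB. On deviations after group and sex these 8 genes had r between 0.669 and 0.816. The lowest r belonged to PNMA1 (-0.823), the splicing factor TXNL4A (-0.804) and the cohesin acetyltransferase ESCO1 (-0.765).

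For the strongest CEBPD probe set the highest r belonged to the activin receptor ACVR1B (0.865), TLR4 (0.846), the complement factor properdin CFP (0.844) and SOD2 (0.840). They were followed by PGD (0.833), an enzyme of the pentose phosphate pathway, the myeloid adaptor TYROBP (0.828), the inhibitory receptor SIRPA (0.825) of myeloid cells and TMBIM1 (0.823). On deviations after group and sex their r lay between 0.732 and 0.833. The lowest r belonged to TARBP1 (-0.806), a protein of RNA methylation, the spliceosome protein SNRPA1 (-0.791) and the chromatin protein PSIP1 (-0.755). None of the 8 genes most like CEBPB was among the 8 most like CEBPD, although each member ranked high for the other: CEBPD was 114 for CEBPB and CEBPB 223 for CEBPD among the 6032.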

How the data were processed

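The authors deposited linear intensities, a single value for each probe set of each array; 1 sample was on each of 24 arrays and no count of reads lies behind the values. Their tools were RMA and GCOS, per the submitters' processing notes, with versions, roles and settings not given in the sources used here. Values were taken to log2, which is the scale of all levels and differences. The files held 24123 probe sets, 124 of them Affymetrix controls. Ranked by their mean signal, the bottom 25% of the remaining 23999 were not tested, and 17999 were. Symbols were read from the annotation of the array; of those tested, 8540 carried 1 symbol, 168 carried several and 9291 carried none. No genome positions or sequences were used here.

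Differences came from limma 3.58.1 (R 4.3.3) with the 24 arrays in a linear model of 6 diet means plus a sex term; tests were two-sided and moderated, with Benjamini-Hochberg adjustment over the probe sets tested (threshold 0.05). Sex by diet and values within a sex came from a model of 12 diet and sex groups. The p-values of limma set a difference against the spread between animals. Relations were tested by 100000 permutations, two-sided, and within groups by permuting the residuals after group and sex inside each group. Sex was removed as a single term shared by all groups, so gaps between the sexes that differed between groups remained in these residuals. The 3' to 5' ratio is the mean log2 ratio of 3' to 5' probe sets of actin, EF1A and GAPDH.

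The members, lists and alternatives were chosen with earlier results of these data known. The named genes are all probe sets of CEBPB and CEBPD; for each of them (highest mean probe set) the 8 genes of highest and 3 of lowest r; and from each list, in each comparison, up to 4 genes of smallest p. Each gene is represented by its probe set of highest mean. The method was tested on simulated data. Alternatives covered the sex term, the arrays used, normalization, array weights, the filter, the variance prior, covariates, each sex alone and each animal left out.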

Additional observations from a re-analysis of the deposited data

Results flagged for a closer look

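In the group CT, male 4 had a neutrophil marker mean of 1.96 above the mean of all arrays (log2), far from the other 3 animals. It was the 1 value singled out among 72 groups of 4 animals, and chance singles out about 1 in 20 such groups.

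The difference of AD from CT had opposite signs in the sexes for CEBPB and for the strongest CEBPD probe set: both AD females were below both CT females, and both AD males above both CT males. For CEBPB it was -0.18 in females and 0.37 in males, and the difference between these had an unadjusted p of 0.177 and an adjusted p of 0.517 in limma. For the strongest CEBPD probe set it was -0.10 in females and 0.10 in males, and the difference between these had an adjusted p of 0.695 in limma. Neither test of the difference between the sexes passed its threshold. The middle CEBPD probe set, which followed the 3' to 5' ratio, had the same sign in both, 0.085 in females and 2.12 in males. The ratios were 1.51 and 2.93 in AD males against 3.24 and 4.39 in CT males. With the ratio as a covariate and the sexes together, AD differed from CT by 0.08 (SE 0.27) in this probe set.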

How the results depend on the processing

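With 1 animal left out, AD against CT turned sign for CEBPB (-0.039 to 0.25) and for the strongest (-0.097 to 0.084) and weakest (-0.092 to 0.117) CEBPD probe sets. With the monocyte marker mean as a covariate, AD-GE against AD was 0.15 for CEBPB and -0.50 for the strongest CEBPD probe set, and the sex difference of the weakest was 0.011. Within females and males, the strongest probe set had -1.04 and -0.55 in AD-GE against AD, -1.02 and -0.17 in AD-RES against AD, and -0.69 and 0.031 in CT-GE-RES against CT; the weakest had 0.23 and -0.51 in AD-GE-RES against AD. The sex difference of CEBPB was -0.52 and passed with array weights, but did not pass with any 1 animal left out. That of the strongest CEBPD probe set was -0.10 with array weights and -0.0071 when centred on array medians. Leaving out 1 animal gave -0.026 to 0.055 for it and -0.076 to 0.025 for the weakest.

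The listed genes with an unadjusted p under 0.05 were 7 in AD against CT, 3 with the 3' to 5' ratio as a covariate, and 2 to 11 with 1 animal left out. They were 10 in AD-GE against AD (5 to 13 with 1 left out) and 12 in AD-RES against AD (7 to 20). In AD-GE-RES against AD the count was 1, and 2 with median centring, 9 with array weights, 0 without the lower 50% of probe sets, and 1 to 22 with 1 left out. In CT-GE-RES against CT it was 1, and 2 after quantile normalization, 4 with the ratio and 0 to 5 with 1 left out.

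Differences of other genes turned sign too. In AD-GE-RES against AD, DDIT3 (0.0026) was -0.039 after quantile normalization, -0.016 with median centring, -0.23 with array weights and -0.012 with the ratio, and NR4A3 (0.75) was -0.062 with array weights. With the ratio, CT-GE-RES against CT gave 0.0027 for DDIT3 (-0.025 without it) and -0.086 for ATF4 (0.30). With 1 animal left out, the stronger CEBPA probe set ran between -0.13 and 0.057 in AD against CT, -0.14 and 0.049 in AD-GE-RES against AD, and -0.18 and 0.0072 in AD-RES against AD. In AD-GE-RES against AD, CEBPG ran between -0.25 and 0.0058, DDIT3 between -0.33 and 0.23, JUN between -0.42 and 0.0017 and NR4A3 between -0.39 and 1.23. In CT-GE-RES against CT, DDIT3 ran between -0.11 and 0.027 and HP (-0.71) between -1.06 and 0.030.

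After group and sex were removed, r was 0.611 for CEBPB with the middle CEBPD probe set and -0.574 with B cell markers, both passing. It was 0.414 for the strongest with the weakest CEBPD probe set and 0.391 for the weakest with monocyte markers, neither passing. The r of the strongest with the 3' to 5' ratio was 0.073 after quantile normalization and 0.019 with median centring, and -0.088 to 0.075 with 1 animal left out. That of the middle probe set with monocyte markers was 0.406 to 0.573. The r of the middle with the weakest was 0.512 once group, sex and ratio were removed; this removal and the split by ratio were chosen after seeing the data. The cause of these changes was not tested. No paired analysis was possible, since each array came from a different pig. The number of arrays and, for ITGAM, SOCS3 and ID1, signal near the filter limit the values.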
